A study of Mus musculus with 6 samples.

Results

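Mouse fallopian tube organoids that had lost Trp53, and carried no other engineered change named in the labels, were compared with control organoids, 1 array each. These were 2 of the 6 arrays of the series, chosen by their labels, and 14361 genes were measured on them of 23787 genes with a named probe. Control organoids were derived from Trp53flox/flox mice and transduced with pLKO.1, which the labels call the control vector. The labels used here call the other culture Trp53 loss and do not say how the gene was removed or whether that culture also carried a vector. Both were taken before any inoculation into mice, and both were grown in serum-free medium with EGF, R-spondin1, Noggin, Jagged-1, the kinase inhibitor Y27632 and CHIR-99021, which switches on Wnt signalling by blocking GSK3. The other 4 arrays held organoids with Trp53 loss plus Pik3caH1047R, an activated PI3-kinase subunit, or plus allele Apc580D of Apc, which restrains Wnt signalling. Each was read before inoculation and as a culture derived after it. By its label, the histology after inoculation was adenocarcinoma for the Pik3ca culture and cyst for the Apc culture. The cultures derived after inoculation are therefore called tumour-derived for Pik3ca and cyst-derived for Apc. Their levels are given beside the main comparison only to show where each gene lay.

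The protein p53 is a transcription factor that is held low by Mdm2 and accumulates after DNA damage, oncogene activity or culture stress. It switches on genes that stop the cell cycle, trigger apoptosis, repair DNA and shut p53 itself off, and it lowers many cell cycle genes indirectly through p21, the product of Cdkn1a. The oviduct epithelium holds secretory cells, which release the fluid and proteins of the tube, and multiciliated cells, whose beating cilia move that fluid.

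A level below is log2 of the background-subtracted intensity relative to the array's own 75th percentile, so 0 is the 75th percentile. A difference is the Trp53 loss level minus the control level, and a difference of 1 is 2-fold. With 1 array per group no difference has a replicate check or a test, and each describes 2 cultures rather than 2 genotypes. Where a probe was not well above background on 1 array, its signal there was raised to the lowest level well above background before the difference was taken, and the fold is then written as "at least". Levels themselves are printed as measured on every array, also where a probe was not well above background. The lowest level well above background ranged from -4.88 in the Apc culture to -4.17 in the Pik3ca culture across the arrays. Of the probes, 48.7% were well above background on the control array and 48.1% on the Trp53 loss array, and no spot was saturated. The control array had 58 outlier spots and the other 131, and the median SD between copies of a probe was 0.043 and 0.072 on the log2 scale. Both arrays shared column 4 of 1 slide. The control array was in row 2 and the other in row 1, and therefore the place on the slide and the genotype cannot be told apart.

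The levels of the 12747 genes well above background on both arrays followed each other closely (Pearson r of 0.973 across genes, which are not replicates). In the Trp53 loss culture, 615 genes were at least 2-fold higher, which is 4.28% of the genes measured, and 850 were at least 2-fold lower, which is 5.92%. Counts of list members below are to be read beside these shares. The lists and their members were chosen with earlier results of these data known. Their counts and medians therefore describe these cultures and are not independent support. At 8-fold, 46 genes were higher and 42 lower. The median difference of all genes was 0.05, with quartiles of -0.25 and 0.30. Dim genes were counted more often: with genes in 3 equal groups by brightness, 8.31% of the dimmest group were 2-fold higher and 11.2% lower, against 1.65% and 2.61% of the brightest group. The choice of scaling moves the split of these counts. With each array centred on its median in place of its 75th percentile, 854 genes were higher and 630 lower, because the median of all genes then lay at 0.22, and with quantile normalization 711 were higher and 767 lower.

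**Figure D1:**
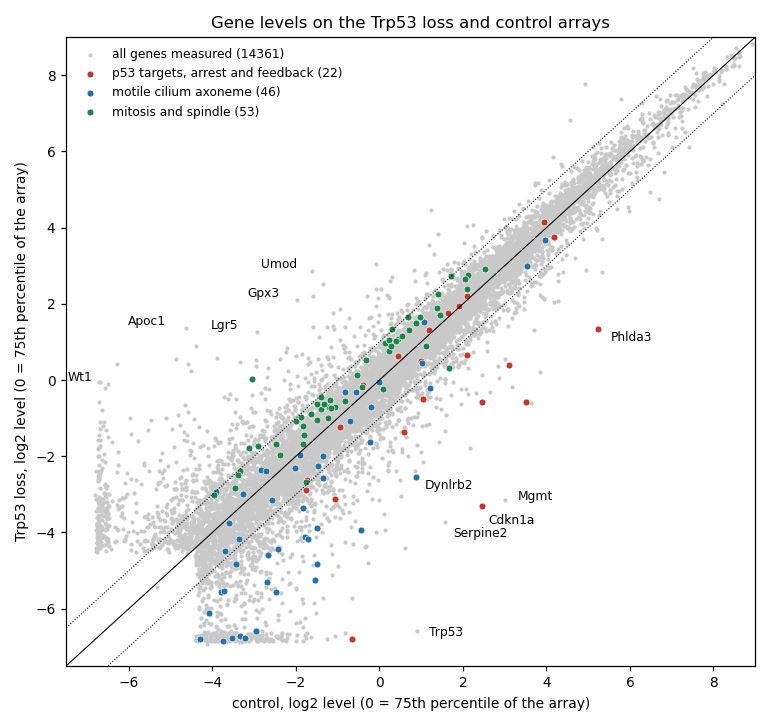
Log2 level of each of 14361 genes on the control array (x axis) and the Trp53 loss array (y axis), with 0 at each array's 75th percentile; the solid line is equality and the dotted lines are 2-fold. Arrest and feedback targets of p53 (red) and axoneme genes (blue) lie mostly under the line, and mitosis genes (green) lie mostly just above it.

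Parts of both arrays carried patches in which neighbouring spots were raised together, control spots included. A patch was defined as a window of 11 by 11 spots in which over 8% of spots were raised over 4-fold against the median of the 6 arrays. Patches held 1686 spots of the control array (2.68%) and 1169 of the Trp53 loss array (1.86%). They touched 7.72% of measured genes and 12.3% of the genes counted as 2-fold apart. Without the spots in patches, 547 genes were at least 2-fold higher and 764 lower, of which 545 and 754 were also counted with them. On the Trp53 loss array a thin ring of 62 raised spots lay outside the patches, and 8 genes with a probe in it were counted as higher. Genes named below whose probe lay in a patch of these 2 arrays or in the ring are marked as such. The other 4 arrays also had patches, from 0.133% of spots in the Apc culture to 4.85% in its cyst-derived culture. Levels quoted from those arrays are not marked for patches.

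**Figure D2:**
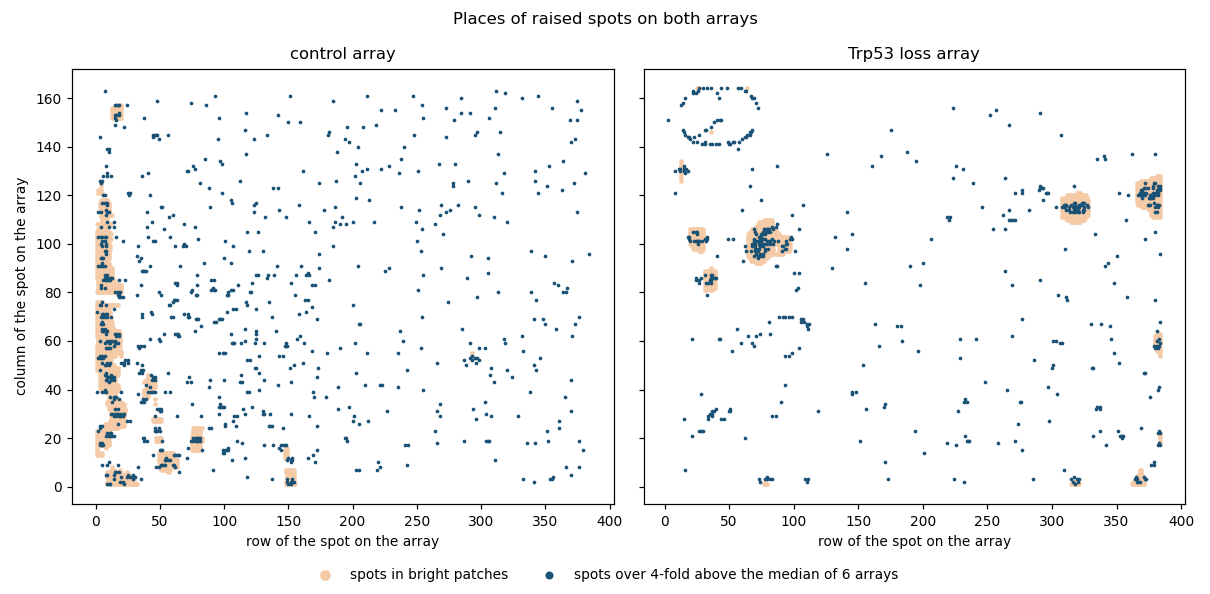
Place of each raised spot (over 4-fold above the median of 6 arrays, dark points) and of the bright patches (orange) on the control array and the Trp53 loss array, by row and column of the spot. Raised spots cluster along 1 edge of the control array and in several round patches and a ring on the Trp53 loss array.

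Trp53 itself was the gene lost. Its level was 0.89 in control and -6.59 in Trp53 loss, where its single probe was not well above background, so the gene was at least 44.0-fold lower. On the other 4 arrays, whose cultures also carried Trp53 loss, Trp53 lay at -5.02 in the Pik3ca culture and -1.62 in its tumour-derived culture. It lay at -3.57 in the Apc culture and -6.68 in its cyst-derived culture. All 5 cultures labelled with Trp53 loss were below control, and the Pik3ca tumour-derived culture was the least so. Where the probe lies relative to the loxP sites was not analysed here, so the value may not report the deletion itself. The genes beside Trp53 on chromosome 11 did not share the size of its difference. Wrap53, which overlaps its start on the other strand, differed by 0.06 and Fxr2 by 0.01. Sat2 differed by 0.49, but its 2 probes gave -0.34 and 1.32. On the other side, Efnb3 differed by -0.90 and Dnah2, above background in control only, by at least -0.78. Further off, Kdm6b differed by 0.06 and Eif4a1 by 0.00.

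Genes that act on or beside p53 were otherwise close to control apart from 2. Mdm2, the ubiquitin ligase that degrades p53 and is itself a p53 target, was 2.87-fold lower, at 1.04 in control and -0.49 in Trp53 loss, and its 2 probes gave -1.59 and -1.45. Cdkn2a, whose ARF product blocks Mdm2 and whose p16 product inhibits CDK4, was 5.42-fold higher, at 1.41 and 3.84, with 2.18 and 2.69 at its 2 probes. On the other 4 arrays Cdkn2a lay between 3.02 and 3.87, all above control. The kinases Atm (0.37), Atr (-0.07), Chek1 (0.12) and Chek2 (0.22), the coactivator Ep300 (0.11), the deubiquitinase Usp7 (0.30) and the relatives Trp63 (-0.51) and Trp73 (-0.80) differed by less than 2-fold.

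The promoters of some p53 targets hold a sequence close to the p53 response element, a 20-base motif made of a repeated decamer. The stretches below come from RefSeq promoter windows (GRCm38.p6, from 250 bases before to 50 bases after each annotated start), run 5′ to 3′ along the gene, and end at or before the start; capitals mark the match. D730003K21Rik is shown because it matched without mismatch and was lower. Cdkn1a, Ccng1 and Ckap2 are shown because they had the fewest mismatches among listed p53 targets with a match before the start. Ckap2, the last of them, matched with 2 mismatches and was less than 2-fold lower.
D730003K21Rik, chr9:116327209-116327308, plus strand: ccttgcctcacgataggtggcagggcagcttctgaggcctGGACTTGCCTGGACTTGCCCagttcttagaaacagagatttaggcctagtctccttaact
Cdkn1a, chr17:29090879-29090978, plus strand: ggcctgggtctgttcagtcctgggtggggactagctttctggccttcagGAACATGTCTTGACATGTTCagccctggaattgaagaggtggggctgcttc
Ccng1, chr11:40755422-40755521, minus strand: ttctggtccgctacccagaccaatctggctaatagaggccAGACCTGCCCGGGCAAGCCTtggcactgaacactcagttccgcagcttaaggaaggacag
Ckap2, chr8:22185963-22186062, minus strand: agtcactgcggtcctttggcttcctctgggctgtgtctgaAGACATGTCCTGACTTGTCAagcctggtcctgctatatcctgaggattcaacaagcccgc
The matches begin 74, 51, 195 and 203 bases before the start, in that order. The consensus was searched on both strands with up to 3 mismatches and none at the core C and G of each decamer. Of all 32851 windows, 1.38% held a match, against 5 of the 26 windows (19.2%) of measured arrest and feedback genes. Among windows of measured genes with 0 or 1 mismatch (2 and 6 windows), 4 belonged to genes at least 2-fold lower and none to genes higher. With 2 mismatches, 7 of 45 windows were of lower genes and none of higher genes, and with 3 mismatches 12 of 170 were lower and 10 higher. Those 12 include Trp53 itself and Aen through 2 windows. Of all 14533 windows of measured genes, 851 were of lower genes and 612 of higher ones, so the counts at 3 mismatches lay near the background. D730003K21Rik, a transcript on chromosome 9 picked after its value was seen, lay at -2.01 in control and -6.37 in Trp53 loss and was at least 5.91-fold lower. These matches describe letters in the windows and show no binding.

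Targets of p53 that arrest the cycle or feed back on p53 were the list with the lowest median in the plot of list differences. Of 22 measured members, 11 were at least 2-fold lower and none higher, and the median difference was -1.02. Cdkn1a, whose product p21 inhibits cyclin-dependent kinases, lay at 2.46 in control and -3.31 in Trp53 loss and was at least 25.6-fold lower. Its 2 probes gave at least -5.30 and -4.06. On the other 4 arrays Cdkn1a lay at -2.78, -0.94, -1.35 and -2.19, between the Trp53 loss and control arrays.

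Phlda3, an inhibitor of Akt signalling, was at 5.24 in control and 1.35 in Trp53 loss, 14.8-fold lower. Psrc1, a microtubule-binding protein, was at 3.50 and -0.57, a 16.8-fold difference. Ddit4l, a relative of the mTORC1 inhibitor Ddit4, was at -0.65 in control and not well above background in Trp53 loss, at least 15.1-fold lower. Ddit4l was at -0.80 in the Pik3ca tumour-derived culture, near control, and between -6.97 and -5.04 on the other 3 arrays.

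Zmat3, an RNA-binding zinc finger protein, was 8.18-fold lower, and Ccng1, cyclin G1, was 6.54-fold lower. Zmat3 was at 2.47 in control and between -0.86 and 0.17 on the other 5 arrays, and Ccng1 was at 3.10 in control and between 0.21 and 1.05. Trp53inp1, a p53-induced nuclear protein, was 3.90-fold lower, with -2.17 and -1.75 at its 2 probes. Gtse1, which shuttles p53 out of the nucleus, was 4.10-fold lower at -1.07 and -3.11, but its control level lay within the range of the other 4 arrays, -2.28 to -0.84. Rap2b, a small GTPase, was 2.20-fold lower. Plk2, a kinase of the centriole cycle, was 2.71-fold lower with its probe in a patch. Mdm4, the partner of Mdm2, differed by -0.89 with all 4 of its probes above background on both arrays.

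The members that stayed near control included well known stress genes. Gadd45a (0.19), Btg2 (0.11), Sesn1 (0.27), Sesn2 (0.03), Plk3 (0.20), Pml (0.11, in a patch) and the E3 ligase Rchy1 (0.13) were all slightly above 0. Ppm1d, the phosphatase Wip1 that turns p53 off, differed by -0.28, and Sfn, the 14-3-3 sigma protein, by -0.43.

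**Figure D3:**
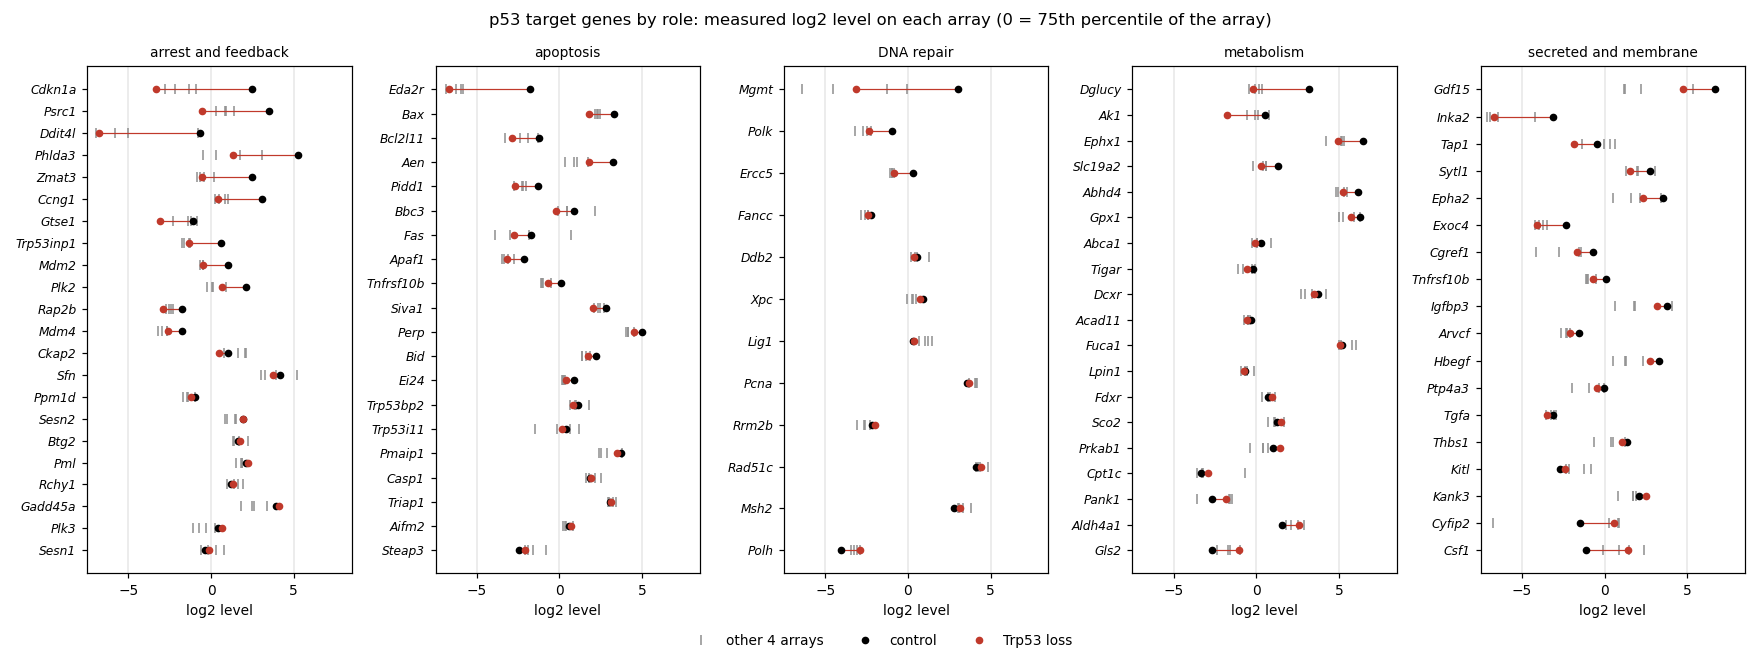
Measured log2 level of each p53 target in control (black), Trp53 loss (red) and the other 4 arrays (grey ticks), in 5 panels by role and sorted by difference within each, with 1 secreted target not drawn. In the arrest and feedback panel the red points lie left of the black ones for 15 of 22 genes, and the lower 7 rows show the members above 0.

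Among p53 targets with a role in apoptosis, 7 of 20 measured members were at least 2-fold lower and none higher, with a median of -0.64. Bax, the pore-forming effector of mitochondrial apoptosis, was 2.80-fold lower, at 3.27 in control and 1.78 in Trp53 loss, with a probe in a patch. Bax lay between 2.14 and 2.47 on the other 4 arrays. Aen, an exonuclease of apoptotic cells, was 2.76-fold lower with an SD of 0.04 between its 4 probes. Eda2r, a receptor of the TNF receptor family, was at -1.78 in control and not above background in Trp53 loss, at least 6.94-fold lower. Pidd1, which nucleates caspase-2, was 2.68-fold lower. The BH3-only gene Bbc3 or PUMA (-1.08) and the death receptor Fas (-1.05) lay close to the 2-fold mark. Bbc3 and Fas were higher in the Pik3ca tumour-derived culture than in control, at 2.13 against 0.89 and at 0.67 against -1.71. Bcl2l11, or BIM, was at least 2.79-fold lower, but at -0.91 without spots in patches it was under 2-fold. Pmaip1, or NOXA, differed by -0.26 and Perp, a desmosome protein and p53 target, by -0.53.

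Of 12 p53 targets in DNA repair, 3 were lower and none higher, and the median was -0.04. Mgmt, which removes alkyl groups from guanine, gave the lowest difference among genes above background on both arrays, 3.01 in control and -3.14 in Trp53 loss, a 71.1-fold difference at 1 probe. Mgmt lay at -6.39 in the Pik3ca culture and -0.04 in the tumour-derived culture from it, and at -1.26 and -4.53 in the Apc pair. Polk, a translesion polymerase, was 2.57-fold lower and Ercc5, the nuclease XPG, 2.24-fold lower. The excision repair genes Ddb2 and Xpc and the ribonucleotide reductase subunit Rrm2b differed by less than 2-fold, although they are often listed as p53 targets.

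Metabolic targets were mixed, with 4 of 19 lower and 2 higher. Dglucy, a mitochondrial D-glutamate cyclase, was 10.3-fold lower, at 3.18 in control and between -0.45 and 0.33 on all other 5 arrays. Ak1, adenylate kinase, was 5.08-fold lower, and Ephx1, the microsomal epoxide hydrolase, was 2.90-fold lower at 6.48 and 4.95. Aldh4a1, a proline catabolic enzyme, was 2.08-fold higher. Gls2, the liver-type glutaminase, was 3.10-fold higher, but its probe lay in a patch. Among secreted and membrane targets, 7 of 19 were lower and 2 higher. Gdf15, a circulating stress cytokine, was 3.84-fold lower at 6.70 and 4.76. Csf1, the macrophage growth factor, was 5.80-fold higher with 2.23 to 2.71 over its 3 probes, and Cyfip2, a subunit of the WAVE actin regulator, was 4.06-fold higher. Over all 5 roles, 32 of 91 measured targets were at least 2-fold lower and 4 higher, with a median of -0.46.

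Genes of the dividing cell differed little one by one but mostly in 1 direction. Of 53 mitosis and spindle genes, 49 were above 0, with a median of 0.63 against 0.05 for all genes, while 5 reached 2-fold higher and 1 reached 2-fold lower. Of all 14361 genes, 7865 were above 0. Of 44 DNA replication and S phase genes, 38 were above 0, with a median of 0.34, 2 were 2-fold higher and 1 lower. Plk1, the mitotic kinase, was at 1.71 in control and 2.72 in Trp53 loss. Cenpa, the centromeric histone, was at 0.30 and 1.33. Ndc80, of the kinetochore, was at -2.91 and -1.74.

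Plk1, Cenpa and Ndc80 were 2.01-, 2.05- and 2.25-fold higher. Mki67, the proliferation antigen, differed by 0.70, Top2a by 0.60, Ccnb1 by 0.92, Ccna2 by 0.63 and the replication helicase subunit Mcm2 by 0.33. Kif4, a chromosome-binding kinesin, was 8.45-fold higher and Mad2l1, of the spindle checkpoint, 2.54-fold lower, but the probes of both touched patches, and Mad2l1 was at -0.65 without them. Cdc25b lay on the 2-fold mark. Mitosis genes had a median level of -0.83 in control, -0.23 in Trp53 loss and -0.01 in the Apc culture. Their median level was 1.22 in the Pik3ca culture, 0.79 in the Pik3ca tumour-derived culture and 1.12 in the Apc cyst-derived culture.

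Many mitosis genes carry a cell cycle homology region (CHR), TTTGAA, the element through which the DREAM complex silences them downstream of p21. In the RefSeq windows, 31 of 48 windows of measured mitosis genes (64.6%) held TTTGAA on either strand, against 17.9% of all windows, and 75% held CCAAT against 37.4%. TTTGAA stood in 12.7% of windows of all measured genes, in 11.9% of those 2-fold higher and in 14.7% of those 2-fold lower. The E2F motif, searched as TTTCGCGC or TTTGGCGC, was in 31.0% of replication gene windows against 0.813% of all windows and 1.42% of windows of measured genes. In 77 windows matches of different motifs overlapped. Only mitosis genes without a probe in a patch and with TTTGAA before the start were considered for display. The 3 of them with the largest differences are shown, and none of these 3 reached 2-fold. The motif is in capitals, as TTCAAA where it lies on the other strand.
Kif2c, chr4:117178823-117178922, minus strand: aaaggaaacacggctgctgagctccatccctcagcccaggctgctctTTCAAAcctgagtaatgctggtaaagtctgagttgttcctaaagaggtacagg
Espl1, chr15:102296193-102296292, plus strand: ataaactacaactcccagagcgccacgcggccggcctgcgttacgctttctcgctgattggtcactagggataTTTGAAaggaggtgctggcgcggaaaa
Kif22, chr7:127042571-127042670, minus strand: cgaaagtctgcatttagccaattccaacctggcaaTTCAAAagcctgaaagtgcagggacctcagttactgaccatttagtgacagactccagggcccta
The differences of these genes were 0.95 for Kif2c, a microtubule-depolymerizing kinesin, 0.85 for Espl1, which is separase, and 0.84 for the kinesin Kif22.

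Of 21 CDK inhibitors, Rb family members and D cyclins, 2 were higher and 2 lower. Beside Cdkn1a and Cdkn2a, Cdkn2c, the CDK inhibitor p18, was 2.50-fold higher and Ccnd2, cyclin D2, 2.38-fold lower. The Rb gene Rb1 (-0.69, in a patch), Cdkn1b or p27 (0.30), Ccnd1 (-0.27) and Ccne1 (-0.12) did not reach 2-fold. General DNA repair genes had a median of 0.24, and Mgmt was the only one of 36 that reached 2-fold.

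**Figure D4:**
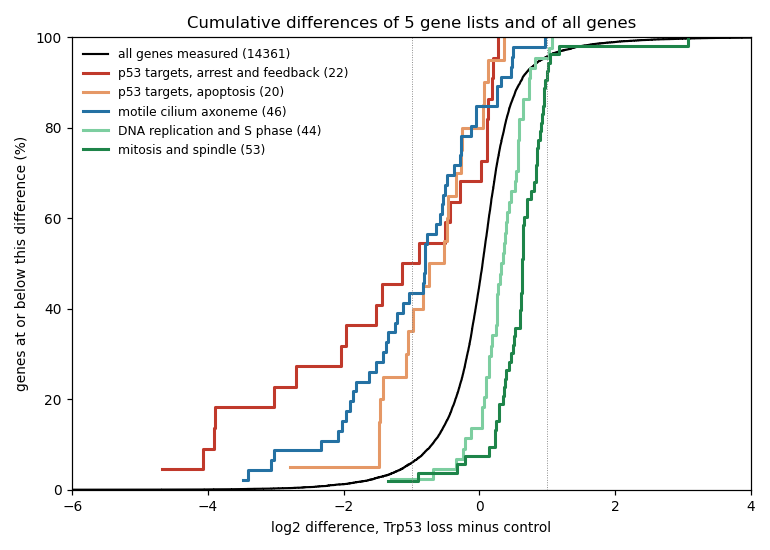
Share of genes (y axis, percent) at or below each log2 difference, Trp53 loss minus control (x axis), for 5 gene lists and for all 14361 genes (black); dotted lines mark 2-fold. The curves of arrest targets, axoneme genes and apoptosis targets lie left of that of all genes, and those of replication and mitosis genes lie right of it.

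Genes of the motile cilium were lower in the Trp53 loss culture. In bulk RNA, fewer cells of a type and less RNA per cell cannot be told apart. Of 68 axoneme genes with a probe, 46 were measured, all 46 of them above background in control and 29 of them in Trp53 loss. Of the 46, 20 were at least 2-fold lower and none higher, with a median of -0.80. With signals as measured, 25 were 2-fold lower and none higher, where 7.38% of all genes were lower and 6.02% higher, and the median was -1.39. Since 17 members passed the filter only through control, these counts describe the members measured. With normexp background correction 9 of the 46 were lower, where 2.5% of all genes were. Of the 29 members with a probe above background on both arrays 9 were lower, where 4.46% of all genes so measured were.

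Ccdc153, a dynein regulatory complex subunit, was at -0.44 in control and -3.93 in Trp53 loss, 11.2-fold lower. Dynlrb2, a dynein light chain, was at 0.87 and -2.55, 10.7-fold lower. Both read lower still on the other 4 arrays, at -6.36 to -5.02 for Ccdc153 and at -5.30 to -3.05 for Dynlrb2. Ccdc153 was not well above background on any of these 4 arrays, nor was Dynlrb2 on the Pik3ca pair.

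Tekt1, a tektin inside the doublet microtubules, was 5.03-fold lower, and Rsph1, of the radial spoke head, was 2.89-fold lower. Odf3b and Meig1 were at least 8.38- and 8.18-fold lower, and Dnali1, an inner arm dynein light chain, at least 4.24-fold lower. Axoneme genes that did not reach 2-fold included Wdr78 (-0.05), Dnaic1 (0.26) and Rsph9 (0.49), and the tubulins Tuba1a (-0.56) and Tubb4b (-0.28), which many cell types express.

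RFX factors bind the X-box in promoters of cilium genes. A near match (at most 1 mismatch to the RFX X-box consensus, searched on both strands) stood in 15 of 47 windows of measured axoneme genes (31.9%), against 4.65% of all windows. Windows of axoneme genes that were 2-fold lower held it at 31.8% and those of the other axoneme genes at 32.0%. The 3 lowest such genes with a match before the start are shown, with the match in capitals.
Ccdc153, chr9:44240482-44240581, plus strand: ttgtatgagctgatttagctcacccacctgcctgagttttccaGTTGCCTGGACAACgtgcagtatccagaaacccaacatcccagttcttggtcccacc
Tekt1, chr11:72361922-72362021, minus strand: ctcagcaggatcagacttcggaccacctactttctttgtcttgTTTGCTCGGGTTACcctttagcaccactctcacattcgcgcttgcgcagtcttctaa
Lrrc23, chr6:124779728-124779827, minus strand: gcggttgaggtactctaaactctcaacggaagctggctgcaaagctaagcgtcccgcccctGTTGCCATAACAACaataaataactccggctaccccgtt
Lrrc23, of the radial spoke, was at least 4.05-fold lower.

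Regulators of multiciliated fate were partly lower, 6 of 18 measured members, and none was higher. Foxj1, the factor that drives motile cilium genes, was at 0.08 in control and -1.52 in Trp53 loss, 3.02-fold lower. It lay at -3.33 and -2.28 in the Pik3ca culture and its tumour-derived culture, and at -2.62 and -1.05 in the Apc pair. Mcidas, which starts the program, was 2.01-fold lower, Deup1, of the deuterosome that makes centrioles, 2.24-fold, and the Notch ligand Jag2 2.54-fold. Ccdc78 and Foxn4, both above background in control only, were at least 4.78- and 3.64-fold lower. Ccno (-0.41), Myb (-0.16) and Gmnn (-0.02) were near control, and Rfx3 differed by 0.91.

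Secretory products were split, with 5 of 25 measured members higher and 6 lower. Ovgp1, oviductin, was at 3.70 in control and 1.31 in Trp53 loss, 5.25-fold lower, and at 2.84, 2.47, 2.96 and 4.09 on the other 4 arrays. Agr2, a disulfide isomerase of mucous cells, was 5.56-fold lower. Fxyd4, a Na,K-ATPase regulator, was 4.96-fold lower.

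Sult1d1, a sulfotransferase, was at least 33.2-fold higher, at -4.41 and 0.91. Gpx3, the secreted glutathione peroxidase, was 16.8-fold higher at -1.98 and 2.09, and Trp53 loss was the highest of the 6 arrays for it, the others lying between -3.41 and 0.24. Spp1, osteopontin, was 7.23-fold higher, from 4.91 to 7.77, and Hp, haptoglobin, 3.27-fold higher. Ptgds, a prostaglandin D synthase, was 5.04-fold higher with its probe in a patch. The abundant products Wfdc2 (-0.05), Lcn2 (-0.14), Ltf (-0.23) and Muc1 (0.07) did not differ by 2-fold.

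Of 24 general epithelial genes, 0 were 2-fold apart and the median was -0.06. Epcam differed by 0.07, Cdh1 by 0.05, Krt8 by -0.57 and Krt18 by -0.28. All 24 were above background on both arrays, which is the check of the epithelial label. Markers of other cells were mostly dim. Of 20 fibroblast markers 5 were above background, and their summed level, relative to the 75th percentile, was 18.4 in control and 24.2 in Trp53 loss. Endothelial markers, 10 and 8 of 18 above background, summed to 9.16 and 9.99, and those of fat and muscle, 6 of 18 on both arrays, to 2.76 and 2.29. Mesothelial markers, 5 and 7 of 14 above background, summed to 203 and 130, in a list that includes the epithelial genes Krt8 (-0.57), Krt19 (-0.67) and Msln (-0.81). Of its 7 measured members Wt1 and Aldh1a2, both above background in Trp53 loss only, were at least 2-fold higher and none was lower, with a median of 0.15, which was -0.57 above background on both arrays and -0.11 with no filter. Of 20 leukocyte markers, 9 were above background in control and 8 in Trp53 loss, with sums of 75.6 and 34.3, and Ptprc and Col1a1 were not well above background on either array. In that list Cd14, a lipopolysaccharide receptor, was 2.62-fold lower and Laptm5, a lysosomal protein of blood cells, 9.12-fold lower. Their part in the other differences was not tested.

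The list of Müllerian transcription factors and hormone receptors also holds Wnt ligands and Lgr5, and it included 2 genes at least 18.4-fold higher. Wt1, the Wilms tumour factor, which is also in the mesothelial list, was not above background in control (-6.51) and at -0.11 in Trp53 loss, at least 20.4-fold higher. Wt1 lay at 1.72 in the Pik3ca culture and was at -5.79 or below in the other 3 cultures. Lgr5, the R-spondin receptor of epithelial stem cells, was at -2.94 and 1.26, 18.4-fold higher. It was at 0.74, 2.07 and 2.92 in the Pik3ca, Apc and Apc cyst-derived cultures but -4.26 in the Pik3ca tumour-derived one. In all, 4 of 28 measured members were higher and 6 lower.

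Dach1, a developmental repressor, was 2.74-fold higher. Gata2 was 3.09-fold lower, and Foxa2, Msx1, Lhx9, Wnt4 and Wnt7a were each between 2.11- and 2.23-fold lower. Pax8, the factor that marks secretory oviduct cells, differed by 0.45, and the estrogen receptor Esr1 by 0.24. The progesterone receptor Pgr differed by -0.69.

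Among Hox and Iroquois factors, which set position along body axes, 3 of 16 were higher and 4 lower. Irx3 was 8.25-fold lower at 1.43 and -1.61, Irx2 3.80-fold lower, and Irx5 at least 6.65-fold lower. Irx3 was at -3.44 and -2.73 in the Apc pair and at 2.28 in the Pik3ca tumour-derived culture, above control. Hoxb8 was 7.31-fold higher and Hoxb9 2.01-fold higher, while Hoxd9 was 2.74-fold lower. Irx6 was at least 2.56-fold higher, but its probe lay in the ring of raised spots.

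Keratins and squamous genes went both ways, with 4 of 22 higher and 5 lower. Sprr2f, a cornified envelope protein, was at 3.86 in control and 0.21 in Trp53 loss, 12.5-fold lower, but at 4.24 and 3.32 on the Pik3ca arrays. Sprr1a was 3.50-fold lower, Krt20 2.42-fold lower and Krt13 at least 6.61-fold lower. Calml3, a calmodulin-like protein of epithelium, was at least 9.55-fold higher, and Krt6b at least 4.29-fold higher. Tmprss11g and Tmprss11b, serine proteases of squamous epithelia encoded on chromosome 5, were 11.9-fold and at least 13.5-fold lower.

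Enzymes of xenobiotic and steroid metabolism differed in both directions, and 9 of 34 measured members were at least 2-fold higher and 9 lower, with a median of 0.02. Hsd11b1, which turns cortisone into active cortisol, was at -3.90 in control and 0.58 in Trp53 loss, 22.4-fold higher. It was at 1.37 in the Pik3ca tumour-derived culture and between -4.26 and -2.02 in the other 3. Inmt, an indole methyltransferase, was at least 32.1-fold higher and Akr1c18, a hydroxysteroid dehydrogenase, at least 14.8-fold higher. Cyp1a1, the classical target of the aryl hydrocarbon receptor, was 9.75-fold higher, at -3.73 and -0.45. Ephx2 was 5.56-fold lower. Aox1, aldehyde oxidase, of the NRF2 list, was 10.9-fold lower.

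Vitamin A enzymes went both ways, with 5 of 20 measured genes of retinoic acid synthesis and response higher and 4 lower. Aldh1a1 and Aldh1a3, which make retinoic acid, were 7.43- and 3.15-fold lower, while Aldh1a2, with the same activity, was at least 4.88-fold higher. Aldh1a1 was at 1.00 in control, -1.89 in Trp53 loss and 6.70 in the Apc cyst-derived culture. Cyp26a1, which degrades retinoic acid, was 3.04-fold higher and its relative Cyp26b1 at least 3.57-fold lower. Lrat, which esterifies retinol, was at least 4.31-fold higher, Rbp7 was 6.23-fold higher, and Dhrs3, a retinal reductase, was at least 6.08-fold lower. Rbp4, 2.08-fold higher, had its probe in a patch.

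Of 39 glutathione enzymes and NRF2 targets, 4 were higher and 7 lower, with a median of -0.39. Gstt2, Gstt3 and Gstt1, theta-class transferases, were 4.51-, 2.09- and 8.80-fold higher, with the Gstt1 probe in a patch. The alpha-class genes Gsta2, Gsta3 and Gsta4 were 5.77-, 2.35- and 2.12-fold lower. Close relatives in these families can share probe sequence, and this was not analysed here. Hmox1, heme oxygenase, was 2.43-fold lower and Gclm, of glutathione synthesis, 2.06-fold lower.

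Genes known from kidney tubules had the highest list median, 0.71, with 5 of 21 measured members higher and 2 lower, though the median was -0.07 with dim probes kept. Umod, uromodulin, was at -1.60 in control and 2.86 in Trp53 loss, 22.0-fold higher. It was at 2.57 in the Pik3ca culture and at 4.98 and 4.30 in the Apc pair, but at -6.74 in the Pik3ca tumour-derived culture. Kcnj1, the ROMK potassium channel, was not above background in control and at 0.42 in Trp53 loss, at least 29.5-fold higher. Fxyd2 was 7.93-fold higher and Aqp1, a water channel, 6.97-fold higher. The 2 probes of Cdh16, kidney cadherin, gave 0.50 and 5.38, so its mean of 2.94 rests on 1 of them. Kap, a kidney androgen-regulated protein, went the other way, at least 11.4-fold lower, and Slc12a1, also lower, had its probe in a patch. Cys1, cystin, a ciliary membrane protein of kidney epithelium, was 13.8-fold higher outside this list.

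Apolipoproteins and lipid transport genes had 5 of 19 measured members higher and none lower, with a median of 0.60. Apoc1 was not above background in control (-4.64) and at 1.37 in Trp53 loss, at least 57.0-fold higher. Its neighbour on chromosome 7, Apoe, was 11.2-fold higher at -2.96 and 0.52, and Apoc2 in the same cluster at least 2.15-fold higher. Apoe was at -4.74 in the Pik3ca culture, below control, at 1.55 in its tumour-derived culture, and at -1.07 and -2.31 in the Apc pair. Apoc1 was at -2.57, 1.88, 0.97 and 0.61 in the same order, above control in each. Angptl4, an inhibitor of lipoprotein lipase, was at least 7.41-fold higher, and Fabp5, a fatty acid carrier, 2.58-fold higher. Without members that were dim on either array this median was -0.03, so it rests on genes seen in Trp53 loss only.

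Matrix genes were divided. Of 16 measured collagens, 4 were higher and 4 lower. Col4a1 and Col4a2, the paired chains of basement membrane collagen, were 5.13- and 4.63-fold lower, at -0.97 and -0.84 in control and -3.33 and -3.05 in Trp53 loss. Col8a1 was 16.4-fold lower, but in 3 of the other 4 cultures it lay at 0.39 to 2.42, above control. Col9a2 was 3.37-fold higher, and Col6a2, at least 10.7-fold higher, had its probe in a patch.

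Fibronectin, Fn1, was 4.72-fold lower over 3 probes, with a patch touching them, and among integrins and laminins 6 of 26 were lower and 2 higher. Lama3 was 3.94-fold lower and the integrin subunits Itga2, Itgb4 and Itgb6 2.36-, 2.15- and 2.11-fold lower, while Itga1 was 3.17-fold higher and Lama1 at least 3.03-fold higher. Agrn was 2.04-fold lower, and at -0.20 without spots in patches. Of 28 matrix proteases and inhibitors, 8 were lower and 5 higher. Serpinb5, maspin, was 6.10-fold lower and Mmp23 7.88-fold higher. The 39.0-fold lower Serpine2, a protease nexin, had its single probe in a patch.

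Signalling lists varied in how many of their members passed 2-fold. Of 25 Wnt ligands and receptors, 6 were lower and 2 higher: Wnt9a was 9.53-fold lower, Wnt5b 4.15-fold and the receptor Ror2 4.03-fold, while Wnt16 was 4.64-fold and Fzd10 2.44-fold higher. Wnt feedback genes had a median of 0.04, and Axin2, a common readout, differed by -0.41 with its probe in a patch. The stem cell factor Ascl2 was 3.42-fold higher. Of 31 TGF-beta and BMP genes, 4 were lower and 3 higher, with Bmp6 4.78-fold and the target Pmepa1 3.22-fold lower, and Tgfb2 2.45-fold and Id4 2.84-fold higher. In the EGF receptor and ERK list 1 of 28 was higher, Dusp6 at 2.09-fold, and none lower. Of 16 Notch genes, Jag2 and Notch4 were lower and none higher. Fgfr1 was 5.17-fold lower, and Igfbp1 and Irs2, both higher, had probes in patches.

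Of 39 interferon response genes, 4 were lower (10.3%) and 2 higher (5.13%), beside 5.92% and 4.28% of all genes. Oasl1, Usp18, Ifi27 and Oas2 were 2.54-, 2.35-, 2.25- and 2.01-fold lower, and Ifit3 and Ifit3b 2.88- and 2.27-fold higher. The median difference was -0.22, and 29 of the 39 were below 0. Of 34 chemokines and cytokines, 3 were lower (8.82%), among them Cxcl5 at 2.55-fold, and 2 were higher (5.88%), Csf1 and Ccl5.

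Other metabolic lists had positive medians with few members past 2-fold. Cholesterol and fatty acid synthesis had a median of 0.35 over 35 genes, and none was 2-fold lower. Glycolysis and hypoxia genes had a median of 0.30 with 4 of 35 higher, among them Ankrd37 at 3.98-fold and Slc2a3, a glucose transporter, at 2.88-fold. Of 32 ATF4 and ER stress genes 3 were higher, Fgf21 5.80-fold, the amino acid transporter Slc7a3 4.93-fold and Cth, of cysteine synthesis, 4.13-fold.

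Some genes named by the size of their difference belong to none of these lists. Hmga2, a chromatin architectural factor of embryonic tissue, was 8.29-fold higher over 2 probes, at -2.20 and 0.85. Guca2b, uroguanylin, was 9.38-fold higher and at 1.23 and 4.46, above every other array. Fkbp10, a collagen chaperone, was 8.77-fold higher. Aebp1, listed among mesenchymal genes, was 14.5-fold higher over 2 probes. Prl6a1, of the prolactin family, was 14.0-fold higher.

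On the lower side, Tnfrsf11b, osteoprotegerin, which binds RANKL and is in the mesenchymal list, was 18.8-fold lower, at 3.62 in control and between -1.52 and 0.17 on the other 5 arrays. Slco1a5, an organic anion transporter, was 15.6-fold lower at 2.17 and -1.79. Gm10639 was 12.8-fold lower, at -0.62 and -4.30, and between -0.16 and 0.49 on the other 4 arrays. Gulo, which completes the making of vitamin C, was 12.4-fold lower. It lay above control, however, in the Pik3ca culture (3.65) and the Apc cyst-derived culture (6.49).

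Among genes seen on 1 array only, Obp2a, an odorant-binding lipocalin, was at least 25.9-fold higher, at -4.52 in control and 0.23 in Trp53 loss. Cyp2c68 and Gm5099, at least 21.1-fold higher, had probes in patches and lay between -7.11 and -6.27 on all other arrays. On the control side, 2300002M23Rik was at least 32.7-fold lower, and C430002N11Rik at least 19.6-fold. Krtap1-5, a keratin-associated protein, differed by at least -3.91. Vgf, at least 10.7-fold lower, had its probe in a patch.

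By chromosome, the median difference of the measured genes lay between -0.01 on chromosome 1 and 0.08 on chromosome 18. Of the 1205 measured genes on chromosome 11, which holds Trp53, 4.48% were higher and 5.06% lower, near the shares of all genes.

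**Figure D5:**
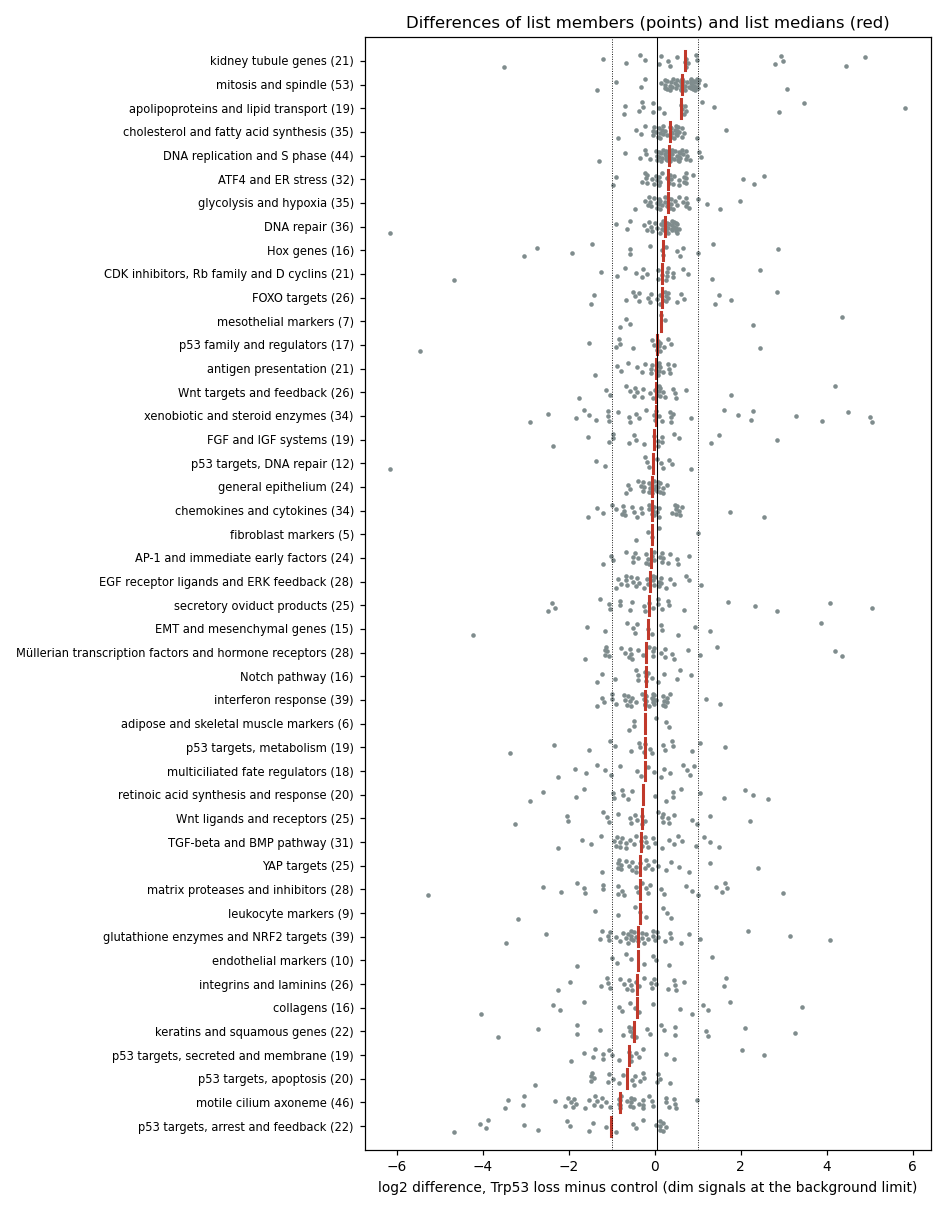
Log2 difference, Trp53 loss minus control (x axis), of each measured member (grey points) of 46 gene lists, with the list median in red and the number measured in brackets; the solid line is the median of all genes and the dotted lines are 2-fold. Arrest targets of p53 (-1.02) and axoneme genes (-0.80) have the lowest medians, and kidney tubule (0.71) and mitosis genes (0.63) the highest.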

How the data were processed

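Total RNA of the control and Trp53 loss cultures, extracted with RNeasy and labelled with Cy3 by the Low Input Quick-Amp kit per the labels, was read on 1-colour Agilent arrays. Feature Extraction (Agilent, version 11.0.1.1, named in the submitters' processing notes) gave the intensity of each spot after background subtraction, per the file headers, and arrays were not scaled to each other. The authors' deposited value table has 2047 probes in log2. Across probes, its difference between Trp53 loss and control followed that of the log2 scanner intensities (r of 1). Whether its levels on each array match the scanner intensities was not tested. The sources used here state neither the centring of this value table nor how its probes were picked.

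Control and outlier-flagged spots were left out, copies of a probe averaged, and log2 intensities centred on each array's 75th percentile. 34566 of 56605 probes were named through their RefSeq accessions, and 22039 had no gene. A gene's level is the mean over those of its probes that either array showed well above background. Precision is limited by 1 array per group. Genes named are Trp53, members of the 46 lists, the 15 most different in each direction above background on both arrays, the 10 with the largest bounds in each direction above background on 1 array, and neighbours of Trp53. Genes outside this rule are said to be so, and a few named by it are not reported here. The lists and members were chosen with earlier results of these data known. The calculation was tested on simulated data. Alternatives were median scaling, quantile normalization, normexp (limma 3.58.1, R 4.3.3, offset 50, on the median signal), filters, brightest probe, outlier spots kept, the value table and, added after the data were seen, leaving out patches. Python 3.11.15, numpy 2.4.6, pandas 2.3.3, scipy 1.17.1 and matplotlib 3.10.9 were used.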

Additional observations from a re-analysis of the deposited data

How the results depend on the processing

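No paired analysis was possible because each group has 1 array, and for the same reason no replicate could be left out. Among named genes at least 2-fold apart, no direction reversed among those an alternative measured, and these were 104 of the 262 in the value table, 205 above background on both arrays and 248 without patches. All alternatives reuse the same 2 arrays, so the lack of reversals is no check of the directions. Median scaling moved every difference by the same amount, too small to reverse a 2-fold one. Past 2-fold stayed 174 of 262 with normexp, 230 with median scaling and 243 of the 248 without patches. Genes counted as higher and lower were 268 and 359 with normexp, and 325 and 346 of the 1296 genes in the value table. The median of p53 arrest and feedback targets was -0.84 with median scaling and -0.55 with normexp, and that of mitosis genes 0.81 and 0.49. The median of axoneme genes was -0.63 with median scaling, -0.64 with quantile normalization, -0.47 with normexp, -0.54 above background on both arrays, -0.26 with no filter and -1.39 as measured, and 9 members were lower both with normexp and above background on both arrays. With median scaling the secretory list moved to 0.038 and the mesenchymal list to 0.013. With no filter on dim probes the Hox and Iroquois list lay at -0.11, kidney genes at -0.073, apolipoproteins at -0.11 and mesothelial markers at -0.11; where both arrays are dim, the difference is that between the background limits. Above background on both arrays, apolipoproteins lay at -0.032 and mesothelial markers at -0.57. The value table gives a median only for lists with most of their measured genes in it. Dim genes and single probes set the limits of these comparisons.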

Other observations

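Of 26 FOXO targets, 4 were at least 2-fold higher and 2 lower, with a median of 0.16: Pdk4, which restrains pyruvate oxidation, was 3.39-fold higher and Fbxo32, a ubiquitin ligase of muscle wasting, 2.68-fold lower. Of 25 YAP targets, 2 were at least 2-fold higher and 1 lower, and 18 were below 0, with a median of -0.34. Gas6, a ligand of the TAM receptors, was 5.25-fold higher and Ankrd1 2.34-fold lower. Of 21 antigen presentation genes, the peptide transporter Tap1, itself a p53 target, was 2.60-fold lower and none was higher. Of 24 AP-1 and immediate early factors, Ier5 was 2.29-fold lower and Fosb at least 2.03-fold lower. Vim, the mesenchymal filament vimentin, was at -2.99 in control and not above background in Trp53 loss, a difference of at least -1.58.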
